A study of Mus musculus with 10 samples.

Results

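The MHC class II genes are the 10 genes H2-Aa, H2-Ab1, H2-Eb1, Cd74, Ciita, H2-DMa, H2-DMb1, H2-DMb2, H2-Oa and H2-Ob. They were chosen by symbol for their roles, at a time when earlier results of these data were known. All 10 were among the 24385 gene symbols of the count table and among the 13075 genes with enough counts to be tested. They were followed in bone marrow-derived dendritic cells (BMDCs), antigen-presenting cells that grow out of mouse marrow in GM-CSF. Cells were either given AMLE, a leaf extract of the apple mango, at 400 µg/mL, or 0.04% DMSO as vehicle, in both cases for 24 h from day 6 of a culture of 7 days with 20 ng/mL GM-CSF. Only cells that did not adhere were taken. The donor mice were wild type, C57BL/6, female and 8 to 10 weeks of age. RNA was sequenced in 3 AMLE and 3 DMSO libraries, and open chromatin was mapped by ATAC-seq, in which a transposase cuts accessible DNA, in 2 AMLE and 2 DMSO libraries. Whether the replicates came from separate mice or cultures is not given, so p-values measure the spread between these libraries, which may be technical. The series title asks whether the extract matures and activates the cells.

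MHC class II molecules are surface heterodimers of an alpha and a beta chain that show peptides from the endosome to CD4 T cells. In the endoplasmic reticulum they bind the invariant chain, encoded by Cd74, whose remnant CLIP is later exchanged for peptide by the dimer H2-DM, which in turn is held back by the dimer H2-O. Their genes share an upstream module, the X and Y boxes, where the RFX complex, CREB and NF-Y sit and recruit the transactivator CIITA, encoded by Ciita. In maturing dendritic cells class II transcription is known to fall at late times while molecules already made move to the surface.

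The X and Y boxes of the members are printed here because the open-chromatin intervals at these promoters can be read against them. RefSeq promoter entries (assembly GRCm38.p6, 250 bases before to 50 after a start) existed for 7 members and for H2-Eb2, a further class II beta chain gene. Each entry was searched on the gene's own strand for the Y box GATTGG with an X core starting 20 to 50 bases before it. The X core was either AACNNATG or the shorter GNAAC. The pair was found in 6 of the 7 members and in H2-Eb2. Neither of the 2 entries of H2-DMa held it, and the rest of its annotated span was not searched. Capitals mark the X core and the Y box, and each line reads 5′ to 3′ on the gene's own strand, which is the minus strand for H2-Aa and the plus strand for the others.
H2-Aa: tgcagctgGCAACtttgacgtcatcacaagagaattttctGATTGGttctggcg
H2-Eb1: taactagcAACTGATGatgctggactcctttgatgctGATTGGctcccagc
H2-DMb1: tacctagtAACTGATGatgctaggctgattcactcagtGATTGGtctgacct
H2-DMb2: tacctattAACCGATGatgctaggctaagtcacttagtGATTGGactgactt
H2-Oa: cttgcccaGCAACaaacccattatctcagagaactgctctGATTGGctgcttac
H2-Ob: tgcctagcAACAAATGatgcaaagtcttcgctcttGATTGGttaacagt
H2-Eb2: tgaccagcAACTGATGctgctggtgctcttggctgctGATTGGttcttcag

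These stretches lie at chr17:34287859-34287912 (H2-Aa), chr17:34305770-34305820 (H2-Eb1), chr17:34153091-34153142 (H2-DMb1), chr17:34145120-34145171 (H2-DMb2), chr17:34092295-34092348 (H2-Oa), chr17:34238812-34238860 (H2-Ob) and chr17:34325537-34325587 (H2-Eb2). The X core began 27 bases before the Y box in H2-Ob and 32 bases before it in H2-Aa and H2-Oa, with the others between. H2-DMb1 and H2-DMb2, which are near copies, were identical at 54 of the 60 bases that end with the Y box (90%), and H2-Eb1 and H2-Eb2 at 45 of 60 (75%). Other pairs of these genes matched at 25% to 45% of the bases. Searched on both strands, unlike the members above, 16.1% of all 32851 promoter entries held GATTGG, 84.8% held GNAAC and 8.86% held AACNNATG. Also on both strands, a pair with either X core at that spacing was in 1.76% of entries. The pair with AACNNATG was in 30 entries (0.0913%), among them H2-Eb1, H2-DMb1, H2-DMb2, H2-Ob and H2-Eb2. The letters were written with these promoters in view, so the shares describe how common the letters are and test nothing.

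Total counts were 26010455, 34208286 and 26325173 in AMLE libraries 1 to 3 and 31413578, 28457863 and 28754835 in DMSO libraries 1 to 3. The dendritic cell label was set against its markers: Itgax (CD11c) had 618 to 773 CPM (a gene's reads relative to the normalised size of its library) in AMLE libraries and 611 to 813 in DMSO libraries, and Flt3 and Zbtb46 were detected in all 6. Of 9 dendritic cell markers 5 rose (among them Ccr7, Flt3 and Zbtb46) and 1 fell (Cd209a). The summed level of the 9 was 4705 to 4909 CPM in AMLE and 3227 to 3602 CPM in DMSO libraries, with Itgam the most abundant. Within that sum Ccr7 averaged 1715 CPM in AMLE and 625 CPM in DMSO libraries. Itgam and Itgax were not called (edgeR adjusted p = 0.445 and 0.795). Granulocyte and precursor markers summed to 8731 to 12194 CPM in AMLE and 13427 to 21337 CPM in DMSO libraries, led by S100a9, with 7 of 9 lower. Macrophage markers, led by Adgre1, summed to 227 to 300 CPM in AMLE and 516 to 848 CPM in DMSO libraries, with 6 of 8 tested lower, among them C1qa, C1qb and C1qc, and Adgre1 higher. B cells carry class II too: the 8 B cell markers, led by Cd79b, summed to 28.6 to 40.9 CPM in AMLE and 28.5 to 42.0 CPM in DMSO libraries, with adjusted p from 0.241 to 0.898. Plasmacytoid dendritic cell markers, led by Pacsin1, summed to 11.8 to 15.6 CPM in AMLE and 11.9 to 13.9 CPM in DMSO libraries, with 1 of 4 tested (Ly6d) lower. With a replicate block S100a8, S100a9 and Mertk were also called lower, which made 9 granulocyte and 7 macrophage markers. Beside these counts, 25.6% of all genes tested were called lower and 23.0% higher, or 29.2% and 26.3% with the block. No listed marker was at 0 in all 6 libraries, although Cd163 and Vsig4 of the macrophage list were at 0 in some. The part of these shifts in the class II results was not tested, and in bulk RNA fewer cells of a type and less RNA per cell cannot be told apart.

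Class II genes were mostly lower after AMLE, with H2-Oa the exception. In edgeR's quasi-likelihood test with Benjamini-Hochberg adjustment over all genes tested, 5 of the 10 members fell (H2-DMb1, H2-DMa, H2-Ab1, H2-Ob and H2-DMb2), 1 rose (H2-Oa) and 4 were not called (H2-Aa, H2-Eb1, Cd74 and Ciita). The same test called 25.6% of all genes lower and 23.0% higher, and the counts of members are read against these shares. The median log2 fold change, AMLE over DMSO, was −0.46 over the members and −0.01 over all genes tested. With the replicate number as a block, which compares each AMLE library with the DMSO library of the same number, 9 members were lower and 1 higher, against 29.2% and 26.3% of all genes. The labels do not say what the number marks, and this pairing was taken from the same counts. In single libraries, 9 members were lower in AMLE in each of the 3 same-numbered pairs (38.8% of all genes were) and H2-Oa was higher in each (36.1% of all genes). The 3 AMLE values lay below all 3 DMSO values for 4 members (31.4% of all genes) and above them for H2-Oa (28.4%). Only 3 members were called lower without AMLE 1, without DMSO 2 or without DMSO 3.

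**Figure D1:**
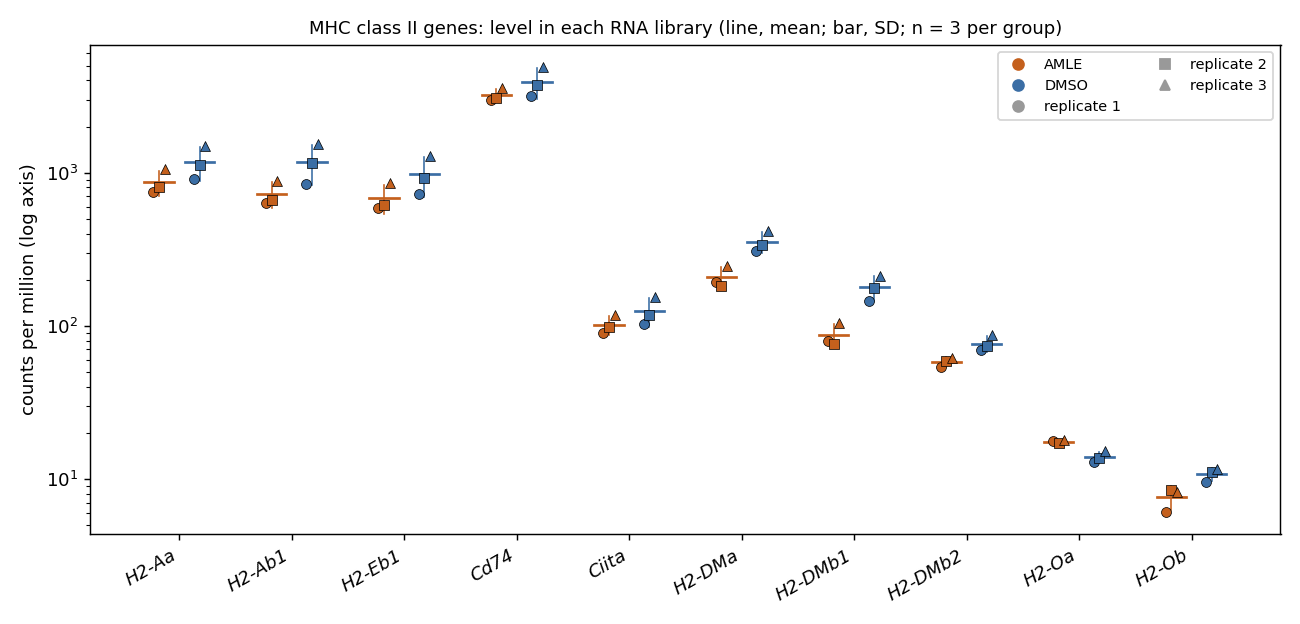
Level of each class II gene in each RNA library in CPM on a log axis, with AMLE left of DMSO, marker shape for the replicate number, lines for means and bars for SD (n = 3 per group). Values of H2-DMa, H2-DMb1, H2-DMb2 and H2-Ob in AMLE lie below all their DMSO values, those of H2-Oa above, and replicate 3 is the highest DMSO library for all 10 genes.

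H2-Ab1 was the surface chain gene that was called lower. It encodes the beta chain of the I-A molecule and had 632, 662 and 887 CPM in AMLE libraries 1 to 3, against 844, 1156 and 1531 CPM in DMSO libraries 1 to 3. Library AMLE 3 exceeded DMSO 1, so the groups overlapped, while each AMLE library was below the DMSO library of its number. The log2 fold change was −0.70 ± 0.23 (SE), with an edgeR adjusted p of 0.041, and of 4.2e-04 with the replicate block. That call was lost without AMLE 1, AMLE 2, DMSO 2 or DMSO 3, where the adjusted p was 0.127, 0.118, 0.0874 and 0.104.

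H2-Aa, the alpha chain of I-A, had 748, 804 and 1055 CPM in AMLE libraries against 907, 1126 and 1494 CPM in DMSO libraries. The third AMLE library again lay above the first DMSO library. The log2 fold change was −0.44 (95% interval −0.92 to 0.05, edgeR adjusted p = 0.117), and with the replicate block the adjusted p was 0.0011. H2-Eb1 encodes the beta chain of I-E, whose alpha chain gene is not functional in C57BL/6 mice. It had 589, 615 and 853 CPM in AMLE libraries against 721, 924 and 1278 CPM in DMSO libraries, also overlapping. Its log2 fold change was −0.51 (95% interval −1.05 to 0.04, edgeR adjusted p = 0.109, and 8.0e-04 with the replicate block).

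Cd74, the invariant chain and the member with the most reads, had 2972, 3070 and 3572 CPM in AMLE libraries against 3177, 3709 and 4906 CPM in DMSO libraries. Pair 1 was nearly level, at a log2 ratio of −0.10, while pairs 2 and 3 stood at −0.27 and −0.46. The fitted change was −0.29 (95% interval −0.68 to 0.09, edgeR adjusted p = 0.175, and 0.0248 with the replicate block). Ciita had 89.8, 97.9 and 117 CPM in AMLE libraries against 102, 117 and 154 CPM in DMSO libraries. AMLE 3 lay above DMSO 1 in both genes, and the change of Ciita was −0.29 (95% interval −0.68 to 0.10, edgeR adjusted p = 0.188, and 0.0028 with the replicate block). Reads of Ciita could be shared with 2 overlapping genes, Dexi and LOC115488669.

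The peptide-loading genes fell. H2-DMa, the alpha chain of H2-DM, had 193, 183 and 246 CPM in AMLE libraries against 306, 339 and 417 CPM in DMSO libraries. The groups did not overlap, and the log2 fold change was −0.77 ± 0.15 (SE), with an edgeR adjusted p of 0.0054. H2-DMb1, its beta chain, had 79.4, 76.5 and 104 CPM in AMLE libraries against 145, 177 and 213 CPM in DMSO libraries. Every AMLE library lay below every DMSO library, and H2-DMb1 fell by 1.04 (SE 0.17, edgeR adjusted p = 0.0026). H2-DMb2, the second beta chain gene, had 53.5, 58.5 and 61.7 CPM in AMLE libraries against 69.2, 73.6 and 86.5 CPM in DMSO libraries. It too was separated by group and fell by 0.40 (SE 0.09, edgeR adjusted p = 0.011). The calls of H2-DMa, H2-DMb1 and H2-DMb2 held in each of the 6 fits that left out 1 library. The annotated span of H2-DMa overlaps that of Brd2, and H2-DMb1 and H2-DMb2 are near copies whose reads the counting could have split, so these counts carry that uncertainty.

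The chains of H2-O, the modulator of H2-DM, moved in opposite directions. H2-Oa, the alpha chain, had 17.7, 17.01 and 17.9 CPM in AMLE libraries against 12.8, 13.7 and 15.1 CPM in DMSO libraries. All AMLE values exceeded all DMSO values, and H2-Oa rose by 0.34 in log2 units (SE 0.08, edgeR adjusted p = 0.010), a call that held without any 1 library. The lncRNA BC051537 spans H2-Oa, and reads of the pair could not be told apart without the strand setting. H2-Ob, the beta chain, had 6.10, 8.46 and 8.25 CPM in AMLE libraries against 9.47, 11.1 and 11.5 CPM in DMSO libraries. It fell by 0.49 (SE 0.15, edgeR adjusted p = 0.028) with no overlap of the groups. Without AMLE 1, DMSO 2 or DMSO 3 its adjusted p was 0.0654, 0.0846 and 0.0777.

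**Figure D2:**
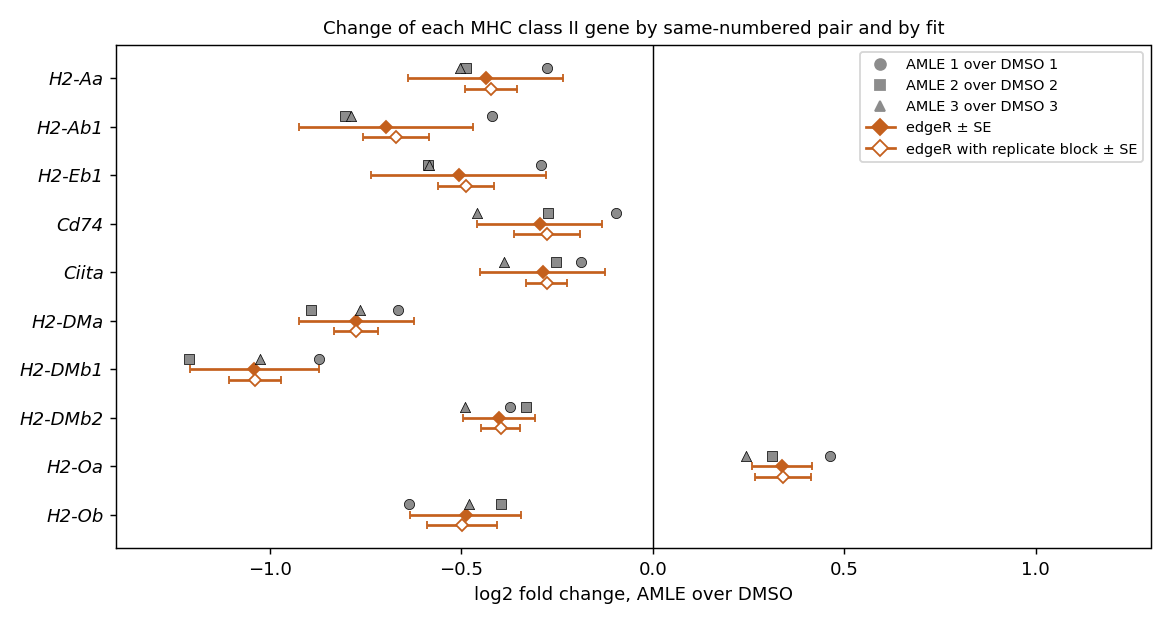
Log2 fold change of each class II gene, AMLE over DMSO, as 3 same-numbered pairs (grey), as the edgeR estimate with its SE (filled) and as the estimate with a replicate block and its SE (open). The estimates hardly move between the fits, from −0.46 to −0.45 in their median, while the SE is smaller with the block for each member. Only H2-Oa lies right of 0.

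Library number ran through these genes in both groups. Replicate 3 was the highest DMSO library for all 10 members and the highest AMLE library for 9, and it was highest in both groups for 9 members, against 22.3% of all genes tested. Summed over the members, class II reads were 5380, 5592 and 6922 CPM in AMLE libraries 1 to 3 and 6294, 7646 and 10106 CPM in DMSO libraries 1 to 3. Their share of all counts was 0.533% to 0.688% in AMLE and 0.630% to 1.02% in DMSO libraries. The macrophage markers were also highest in the third libraries, with 230, 227 and 300 CPM in AMLE and 516, 598 and 848 CPM in DMSO libraries 1 to 3. The granulocyte and precursor markers were lowest there, at 8731 CPM in AMLE 3 and 13427 CPM in DMSO 3. Their part in the order of the libraries was not tested.

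Ratios of reads inside 1 library do not depend on its total, and 11 ratios were computed. An exact permutation test of 3 against 3 libraries, two-sided, cannot go below p = 0.1, which becomes 0.157 after adjustment over the 11 ratios, so no ratio could pass the threshold. H2-Oa over H2-DMa was 0.0917, 0.0931 and 0.0728 in AMLE libraries against 0.0419, 0.0404 and 0.0362 in DMSO libraries, a 2.16-fold higher geometric mean without overlap (exact permutation p = 0.1). H2-Ob over H2-DMb1 was 1.45-fold higher, again without overlap. Against the second beta chain gene the groups overlapped: H2-Ob over H2-DMb2 was 0.114, 0.145 and 0.134 in AMLE libraries against 0.137, 0.151 and 0.133 in DMSO libraries (exact permutation p = 0.5).

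H2-DMb1 over H2-DMb2 averaged 1.49 ± 0.19 in AMLE and 2.32 ± 0.19 in DMSO libraries (SD, n = 3 each), without overlap of the groups. H2-DMa over Cd74 was 0.708 times, H2-DMb1 over Cd74 0.590 times and H2-Ab1 over Cd74 0.761 times the DMSO geometric mean, each with no overlap. Inside the I-A pair, H2-Ab1 over H2-Aa averaged 0.836 ± 0.011 in AMLE and 0.994 ± 0.055 in DMSO libraries, also without overlap. Overlapping groups were seen for H2-Eb1 over H2-Aa and H2-Aa over Cd74 (exact permutation p = 0.2 each) and for Cd74 over Ciita, which averaged 31.6 ± 1.36 in AMLE and 31.6 ± 0.45 in DMSO libraries (exact permutation p = 1).

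**Figure D3:**
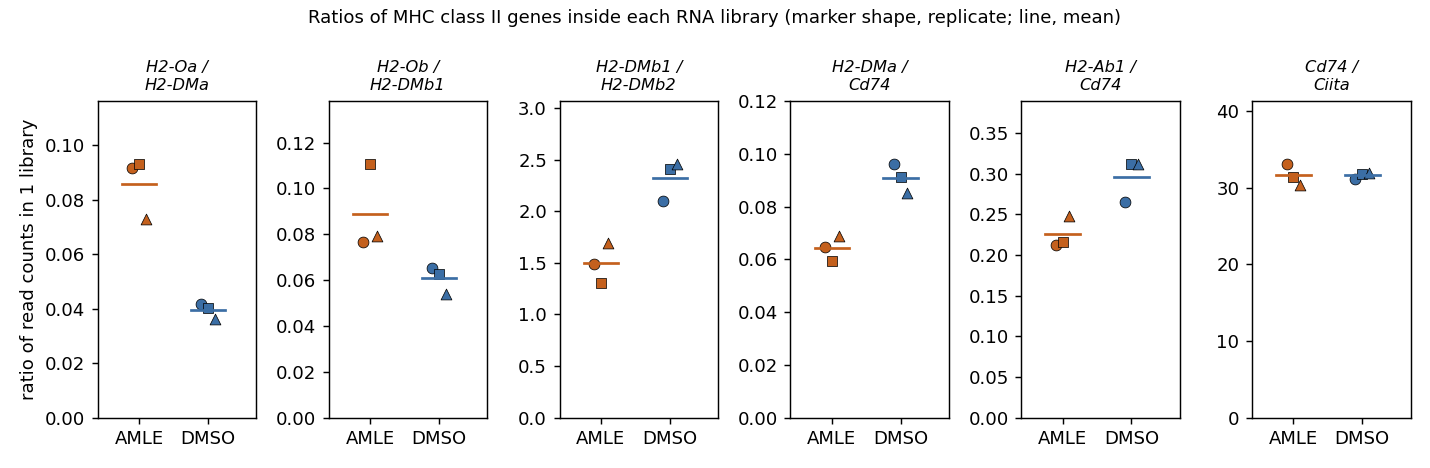
Ratio of read counts of 2 class II genes inside each RNA library, AMLE left of DMSO, marker shape for the replicate number and lines for the means of 3 libraries, on linear axes from 0. H2-Oa over H2-DMa and H2-Ob over H2-DMb1 lie higher in all AMLE libraries, H2-DMb1 over H2-DMb2, H2-DMa over Cd74 and H2-Ab1 over Cd74 lie lower, and Cd74 over Ciita overlaps near 31.6.

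Among 18 further genes that act on class II transcription, 4 fell and 8 rose, with a median log2 fold change of 0.14, beside the 25.6% lower and 23.0% higher of all genes. With the replicate block Creb1 was also called higher, which made 9. Irf8, a transcription factor of the dendritic cell lineage, had 801, 906 and 704 CPM in AMLE libraries against 202, 218 and 234 CPM in DMSO libraries and rose by 1.88 (SE 0.10, edgeR adjusted p = 4.6e-05). Prdm1 encodes Blimp-1, a known repressor of Ciita. It had 39.0, 45.8 and 30.2 CPM in AMLE libraries against 8.74, 9.90 and 10.7 CPM in DMSO libraries and rose by 1.97 (SE 0.16, edgeR adjusted p = 1.9e-04). Irf1, an interferon-induced transcription factor that acts on Ciita, rose by 0.75.

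Of the RFX complex at the X box, Rfx5 rose by 0.28 (edgeR adjusted p = 0.0075), and Rfxap (−0.22, adjusted p = 0.126) and Rfxank (−0.06, adjusted p = 0.528) were not called. NF-Y, the complex at the Y box, was split: Nfyb and Nfyc each fell by 0.24 and Nfya rose by 0.14. The acetyltransferase genes Crebbp (0.49) and Ep300 (0.17) rose, and the deacetylase gene Hdac2 (−0.34) and Spi1 (−0.20), which encodes PU.1, fell. Irf4, the most abundant of those not called, had 292, 346 and 270 CPM in AMLE libraries against 223, 244 and 273 CPM in DMSO libraries (0.30, adjusted p = 0.059). The 4 lower calls shrank to 1 without AMLE 2, to 1 without DMSO 1 and to 2 without DMSO 2, and those of Nfya and Ep300 were each lost in 5 of the 6 fits without 1 library.

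Of 8 tested genes for antigen processing and class II turnover, 3 rose in edgeR (23.0% of all genes did) and 0 fell, also 0 at an unadjusted p below 0.05, in DESeq2 and in limma-voom, with a median of 0.21. Cd83, whose product keeps class II on the surface by blocking its ubiquitination, had 417, 500 and 415 CPM in AMLE libraries against 189, 226 and 226 CPM in DMSO libraries. It rose by 1.06 in log2 units (SE 0.10, edgeR adjusted p = 2.7e-04). Lgmn, an endosomal protease, rose by 0.55, and Ctsd, cathepsin D, by 0.38 (edgeR adjusted p = 0.040), the latter not called without AMLE 1, DMSO 1, DMSO 2 or DMSO 3. Ctss, the cathepsin that trims the invariant chain, was the most abundant gene not called, at 1111, 996 and 1468 CPM in AMLE libraries against 1080, 1211 and 1437 CPM in DMSO libraries (−0.06, adjusted p = 0.778). With the replicate block 5 of the 8 rose, Ifi30 and Sppl2a being added. Marchf1 and Marchf8, of the same list, were not analysed here.

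Beyond the members, the beta chain gene H2-Eb2 was low, at 4.19, 3.59 and 7.49 CPM in AMLE libraries against 5.44, 4.88 and 10.5 CPM in DMSO libraries. The groups overlapped, and the third library was the highest of each group. Its log2 fold change was −0.46 (edgeR adjusted p = 0.357, and 0.0080 with the replicate block). H2-Ea-ps, the I-E alpha pseudogene, had 1, 0 and 1 counts in AMLE libraries and 0 in each DMSO library.

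Of the members, 8 lie on chromosome 17 in a segment of 224296 bases (chr17:34092379-34316674, GRCm38), with Cd74 on chromosome 18 and Ciita on chromosome 16. That segment holds 6 other annotated genes, 5 of them in the count table, of which 4 rose and 0 fell. Of all genes tested, 23.0% were called higher and 25.6% lower. The 4 neighbours that rose serve MHC class I: the immunoproteasome genes Psmb9 (0.48) and Psmb8 (0.46) and the peptide transporter genes Tap1 (0.49) and Tap2 (0.19). Psmb9 had 122, 125 and 115 CPM in AMLE libraries against 80.3, 90.4 and 88.2 CPM in DMSO libraries, with edgeR adjusted p = 7.9e-04. Brd2 (0.06, adjusted p = 0.259) was not called.

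Across all 6 RNA libraries the genes whose log2 CPM followed the mean of H2-Aa, H2-Ab1, H2-Eb1 and Cd74 most closely, out of 8955 genes at 10 CPM or more on average, were Zkscan17 (Pearson r 0.997), Atp8b2 (0.994), 0610010F05Rik (0.990), 5730508B09Rik (0.989) and Rabggta (0.988). These r describe 6 libraries that fall into 2 groups and share library-wide shifts. The 5 genes moved little, with log2 fold changes of −0.12, −0.17, −0.26, −0.12 and −0.10 in the same order, and none was called (edgeR adjusted p 0.0854 to 0.286). With the replicate block Atp8b2 and 0610010F05Rik were called lower (adjusted p = 0.0299 and 0.0051).

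ATAC-seq intervals are places where the authors' peak caller found open chromatin in 1 library. The lists held 15805 and 15597 intervals in AMLE libraries 1 and 2 and 18460 and 19225 in DMSO libraries 1 and 2. An interval absent from the shorter AMLE lists is not shown to be closed. The −log10 q and fold enrichment are the authors' values for each interval and place it only within its own list. With 2 libraries per group the smallest two-sided exact p would be 0.333, so the intervals are described without a test. In and within 10 kb of the members there were 20 and 20 intervals in AMLE libraries and 24 and 26 in DMSO libraries.

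An interval within 1 kb of an annotated start was present in both AMLE libraries for 8 members and in both DMSO libraries for the same 8, all but H2-Ab1 and Ciita. Over the promoter entries of the 9978 tested genes that have one, that share was 69.6% for AMLE and 72.6% for DMSO libraries. Read from the promoter entries alone, 6 of the 7 members with an entry had one in both AMLE and in both DMSO libraries. By library these were 6 and 7 members in AMLE 1 and 2 and 6 and 6 in DMSO 1 and 2, beside 73.0%, 72.8%, 74.5% and 76.8% of all genes. In all these counts H2-DMa is included through intervals that also lie within 1 kb of starts of Brd2. They cannot be assigned to either gene alone.

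The start of Cd74 had an interval with a −log10 q of 33.6 and 44.8 in AMLE and 40.2 and 41.1 in DMSO libraries. It ranked within the top 18.4% to 29.0% of each list. The start of H2-Aa had 8.46 and 15.0 in AMLE and 11.7 and 19.9 in DMSO libraries, and that of H2-Eb1 had 8.07 and 6.98 in AMLE and 9.44 and 10.0 in DMSO libraries. In H2-Aa, H2-Eb1 and H2-DMb1 the interval contained the Y box printed above in all 4 libraries. H2-DMb1 had a −log10 q of 7.78 and 4.11 in AMLE and 12.2 and 12.0 in DMSO libraries.

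Start intervals of H2-Oa stood within the top 64.2% to 95.1% of the 4 lists and those of H2-Ob within 66.4% to 95.9%. Those of H2-DMb1 (55.5% to 80.9%) and H2-Eb1 (62.1% to 67.7%) met these ranges. H2-Oa, the member that rose, had a −log10 q of 3.24 and 1.71 in AMLE and 5.56 and 10.4 in DMSO libraries. Its Y box lay inside the interval only in AMLE 1. H2-Ob had 6.86 and 2.81 in AMLE and 1.97 and 5.83 in DMSO libraries, and its Y box lay outside the interval in all 4. The interval of H2-DMb2 sat at the start of its annotated span, ranked within the top 33.7% and 39.9% of the AMLE lists and 19.5% and 20.4% of the DMSO lists. Its promoter entry, with the Y box, was covered only in AMLE 2, at a −log10 q of 1.39.

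H2-DMa held an interval of high rank inside its annotated span, at chr17:34135323-34135876, 9805 bases or more past the nearest listed start. Whether a further start lies there was not examined. The interval had a fold enrichment of 13.1 and 13.6 in AMLE and 13.4 and 18.5 in DMSO libraries. It stood in the top 12.8% and 11.8% of the AMLE lists and 9.13% and 6.13% of the DMSO lists. The intervals at the listed starts of H2-DMa are also those of Brd2, and cannot be assigned to 1 of the 2 genes. Ciita had no interval within 1 kb of its only listed start, the 5′ end of its annotated span, in any library. Other possible starts of Ciita were not examined. Inside its gene body 1 region, at chr16:10516071-10516345 in AMLE 1, was in all 4 lists, with a −log10 q of 1.34 and 5.49 in AMLE and 4.34 and 13.9 in DMSO libraries.

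H2-Ab1, the surface chain gene called lower, had no start interval in either AMLE library and 1 in DMSO 1 only, at a −log10 q of 5.07. Upstream lay a region at chr17:34261588-34261844, 1383 bases before the gene and so inside the alternative start window of 2.5 kb. It was in both DMSO lists (6.68 and 13.5, within the top 72.8% and 57.1%) and in neither AMLE list. It was the 1 region of that kind among 31 in the segment (3.23%), against 5.95% of 24542 regions genome-wide. Regions in both AMLE lists and neither DMSO list numbered 0 in the segment, against 0.460% genome-wide. A second region, 5022 bases before H2-Ab1 at chr17:34257642-34258205, overlapped the annotated gene Gm20506. It had a −log10 q of 3.20 and 9.21 in AMLE and 25.5 and 28.0 in DMSO libraries. It fell within the top 83.3% and 59.9% of the AMLE lists and 34.6% and 38.0% of the DMSO lists, lists of different length.

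H2-Eb2 had a start interval, with its Y box inside, in both DMSO libraries (1.60 and 4.38) and in neither AMLE library, within the top 98.7% and 83.3% of the DMSO lists. Of the 31 regions of the segment, 16 (51.6%) were in all 4 libraries, against 49.0% genome-wide.

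**Figure D4:**
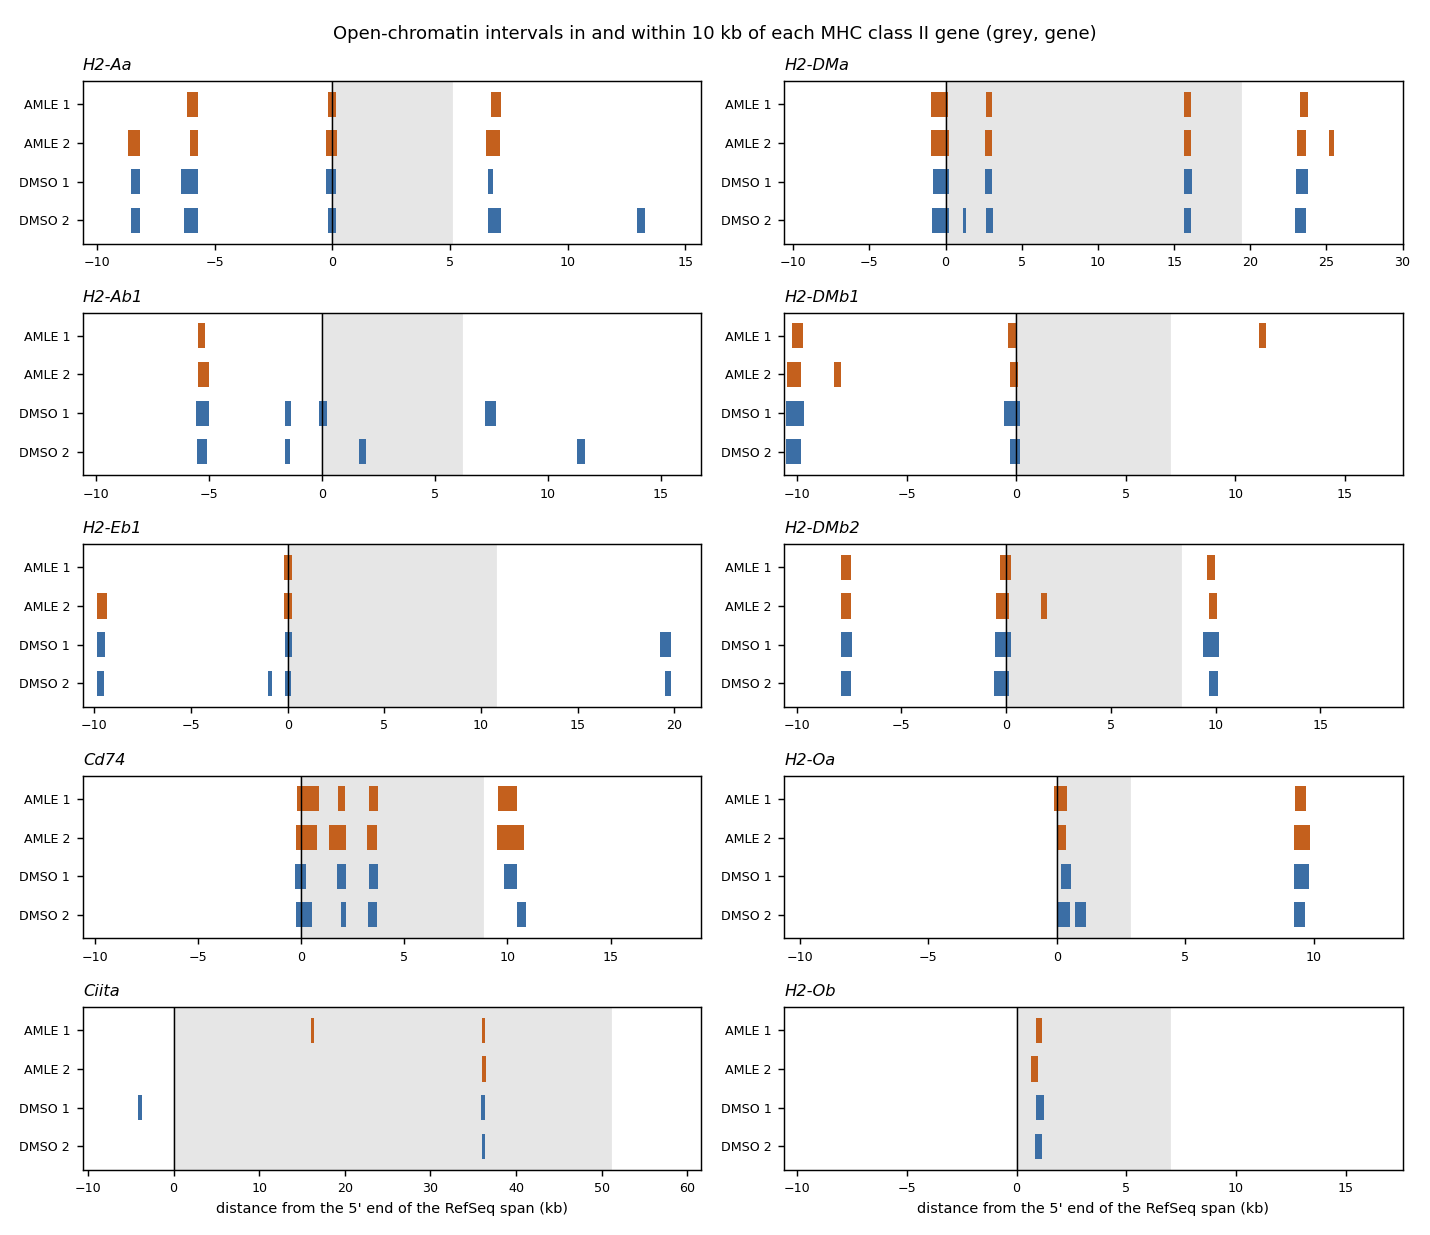
Open-chromatin intervals in each ATAC library (AMLE above DMSO) in and within 10 kb of each class II gene, by distance in kb from the 5′ end of its annotated span, with the gene in grey. The starts of H2-Aa, H2-Eb1, Cd74, H2-DMa, H2-DMb1, H2-DMb2 and H2-Oa carry intervals in all 4 rows, those of H2-DMa being shared with Brd2. That of H2-Ob lies just inside the gene, and the region 1383 bases upstream of H2-Ab1 appears in the 2 DMSO rows alone.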

How the data were processed

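The authors deposited raw read counts per gene symbol for 6 RNA libraries (stranded mRNA kit, per the labels' protocols) and 1 peak list per ATAC library, in which each summit has a fold enrichment (a ratio) and a −log10 q value. Tools named, without roles, in the submitters' processing notes include STAR 2.7.11b, Bowtie2 2.4.4 and MACS3 3.0.0a7, with the build mm10. Not given in the sources used here are the read counter, its strand setting and the ATAC depth. No per-sample column was left unused, and no 2 RNA libraries of the same group agreed within sampling noise.

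Members, gene lists and motifs were chosen with earlier results of these data known. Counts were tested with edgeR 4.0.16 (R 4.3.3; TMM, filterByExpr at a minimum count of 10, robust quasi-likelihood, two-sided), with genes called at a Benjamini-Hochberg adjusted p below 0.05. CPM use effective library totals, log2 CPM a prior count of 2, and SE are approximate, from the F statistic. The test was checked on simulated counts drawn independently for each library, so shifts shared by libraries were not part of that check. Multi-summit peaks were merged, and 24277 symbols matched RefSeq GRCm38.p6. H2-Ab1, Cd74 and Ciita, without a promoter entry, were taken as plus-strand genes from general knowledge.

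The labels do not say what a replicate number marks. Deviations from the group means correlated at 0.292, 0.280 and 0.431 between same-numbered AMLE and DMSO RNA libraries and at −0.310 to 0.110 between others, over 13075 genes, so the numbers were taken to pair the samples, from the data alone. Values with a replicate block are given for the members and lists where they changed a call, and for H2-Ab1, whose call stayed. The block also kept the calls of H2-DMa, H2-DMb1, H2-DMb2, H2-Oa and H2-Ob.

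Named genes were the members, each called gene and the most abundant uncalled gene of both pathway lists, other class II loci, the neighbours between the outermost members, the 5 genes most correlated with the main class II genes, and leading markers. Of the called genes of the transcription list, 1 is not reported here. Other genes were named after their values were seen. Alternatives were RLE factors, DESeq2 1.42.0, limma-voom 3.58.1, no low-count filter, the replicate block, libraries left out singly and by number, and, chosen after seeing the data, library totals without a composition factor. For peaks they were a −log10 q of at least 5, a start window of 2.5 kb, a neighbourhood of 50 kb, 50% reciprocal overlap and libraries left out. Exact tests used SciPy 1.17.1.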

Additional observations from a re-analysis of the deposited data

How the results depend on the processing

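No called result changed direction. Over the fold changes of 37 genes (members, pathway lists and H2-Eb2), 456 alternative values kept the direction and side of the threshold, 61 lost a call and 24 gained one. Another 14, of the uncalled genes Ctsb, Ctsl, Ctss and Kat2b, stayed uncalled with the other sign. With a replicate block 9 members were called lower and 5 processing genes higher. Without both RNA libraries numbered 1, numbered 2 and numbered 3, 3, 2 and 8 members were lower. Without both numbered 1, and likewise without both numbered 2, 0 members were higher and 1 transcription gene lower, with 4 and 5 transcription genes higher. All genes then numbered 1677 and 1895 lower and 1398 and 1586 higher, against 3346 and 3004. Without 1 library at a time, 3 to 6 members were lower and 1 higher, 1 to 3 transcription genes lower and 6 to 10 higher, 2 to 3 processing genes higher, and 2666 to 3475 genes lower and 2263 to 3308 higher overall. H2-Ab1 was not called with no low-count filter (adjusted p = 0.0981) and H2-Eb1 was called by DESeq2 (0.0377). Fits with fewer libraries have fewer degrees of freedom.

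At a −log10 q of at least 5, start intervals in both AMLE libraries were left for 5 members, and in both DMSO libraries for 7, with 12 and 12 intervals at the members in AMLE libraries, 9 of those of AMLE 1 shared. Within 50 kb there were 37 and 33 intervals in AMLE libraries (31 shared) and 46 and 43 in DMSO libraries (35 shared). ATAC depth is unknown, and 2 libraries per group limit every statement on open chromatin.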

Other observations

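Between the class II genes, open chromatin also lay away from the members' starts. The shared start of Psmb9 and Tap1, at chr17:34186986-34188135, ranked within the top 12.5% of the AMLE 1 list and was in all 4 lists. A region 6371 bases from H2-Oa, at chr17:34101605-34102217, overlapped no annotated gene and was in all 4 lists, with a −log10 q of 21.0 and 15.1 in AMLE and 28.4 and 29.8 in DMSO libraries. A region 5690 bases from H2-Aa, at chr17:34293513-34294239, had 9.59 and 11.0 in AMLE and 22.8 and 27.8 in DMSO libraries.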
